A study of Mus musculus with 19 samples.

Results

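Histone chaperones carry newly made or evicted histones and hand them to DNA, and the stem-loop binding protein, SLBP, binds the end of the replication-dependent histone mRNAs. The 9 genes described here, Asf1a, Asf1b, Nasp, Chaf1a, Chaf1b, Hira, Daxx, Atrx and Slbp, were taken by symbol from the 22419 protein-coding genes in the expression files, for their known roles in handling histones. The choice was made with earlier results of these data known, so their counts beside all genes are a description. During S phase, ASF1 and NASP escort soluble H3 and H4, and chromatin assembly factor 1, with its subunits CHAF1A and CHAF1B, places them behind the replication fork. HIRA, and DAXX with ATRX, place the variant H3.3 outside replication, and SLBP is needed for processing and translation of the histone mRNAs that S phase demands. Germ cells copy their genome for the last time in the preleptotene stage, the stage at which they enter meiosis and at which the retinoic acid target STRA8 is made.

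RNA was measured in preleptotene spermatocytes sorted from the testes of C57BL/6 mice, in 3 Stra8 knock-out libraries (Stra8-deficient) and in Stra8 heterozygous libraries taken from testes that stained faintly for STRA8 (low-STRA8, 2 libraries, earlier preleptotene) or strongly (high-STRA8, 2 libraries, later preleptotene). All of these mice carried 1 Ddx4-Cre allele and 1 Rosa26 tdTomato allele, so that tdTomato marked the germ line for sorting, and all had been synchronized with the retinoic acid synthesis inhibitor WIN18,446 from postnatal day 2 to day 8 and retinoic acid on day 9, with collection 6.75 days later. The groups with STRA8 were thus heterozygous rather than wild-type, and they were told apart by staining and not by genotype or age. The Stra8-deficient cells differ from both in genotype and may differ in place within the preleptotene stage, and these cannot be told apart. The 3 groups are thus not a time course, and rose or fell names the direction of a difference between groups. STRA8 binding was measured by FLAG chromatin immunoprecipitation (ChIP-seq) in whole, unsorted testes of mice synchronized alike, 3 samples of Stra8 FLAG/FLAG, in which the endogenous protein carries the tag, and 3 of wild-type, both on a largely C57BL/6 background. Replicate 3 of both ChIP groups was made with another library kit than replicates 1 and 2.

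Library totals ran from 25049625 to 30015072 estimated counts. Counts of replicate libraries differed by 9.16 to 37.8 times their sampling noise (chi-square per degree of freedom), so that no library was a copy of another. Stra8 itself was at 18.0, 22.8 and 5.16 TPM (transcript abundance scaled for transcript length and library size) in the Stra8-deficient libraries, 315 and 236 TPM in the low-STRA8 libraries and 1099 and 1248 TPM in the high-STRA8 libraries, in the order of the labels. All 6 germ cell and meiotic entry markers were over 1 TPM in each group. All 10 Sertoli cell markers were also over 1 TPM on average in each group, with summed levels of 470 to 705 TPM in Stra8-deficient, 121 to 501 TPM in low-STRA8 and 612 to 661 TPM in high-STRA8 libraries, and their part in the results was not tested. Undifferentiated spermatogonia markers summed to 31.4 to 35.4 TPM in Stra8-deficient, 8.56 to 13.9 TPM in low-STRA8 and 15.01 to 15.4 TPM in high-STRA8 libraries. Macrophage and blood markers summed to 7.83 to 22.1 TPM, 41.5 to 45.9 TPM and 1.45 to 7.40 TPM in the same order of groups, and the part of these lists in the results was not tested either. In bulk RNA, fewer cells that make a transcript and less transcript per cell cannot be told apart.

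High-STRA8 cells held more mRNA of 6 of the 9 genes than Stra8-deficient cells and less of none. Asf1b, Nasp, Chaf1a, Chaf1b, Hira and Slbp rose, and Asf1a, Daxx and Atrx did not pass the test. Genes called higher made up 18.8% of the 12526 genes tested and genes called lower 18.3%, at an adjusted p under 0.05. The median of the 9 log2 fold changes was 0.82, against -0.02 over all genes tested. Against low-STRA8 cells, 7 genes were higher in high-STRA8 cells (background 21.4%) and Asf1a was lower (background 18.3%), with a median of 0.86 against 0.01. Between low-STRA8 and Stra8-deficient cells, Asf1a, Asf1b, Chaf1b and Slbp were higher (background 10.2%) and Atrx was lower (background 13.9%), with a median of 0.15 against 0.03. Of these calls, that of Chaf1b was lost in 11 alternative settings and that of Asf1a in 3. Each pair of these comparisons shares the libraries of 1 group, so their values stand side by side and are not independent.

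**Figure D1:**
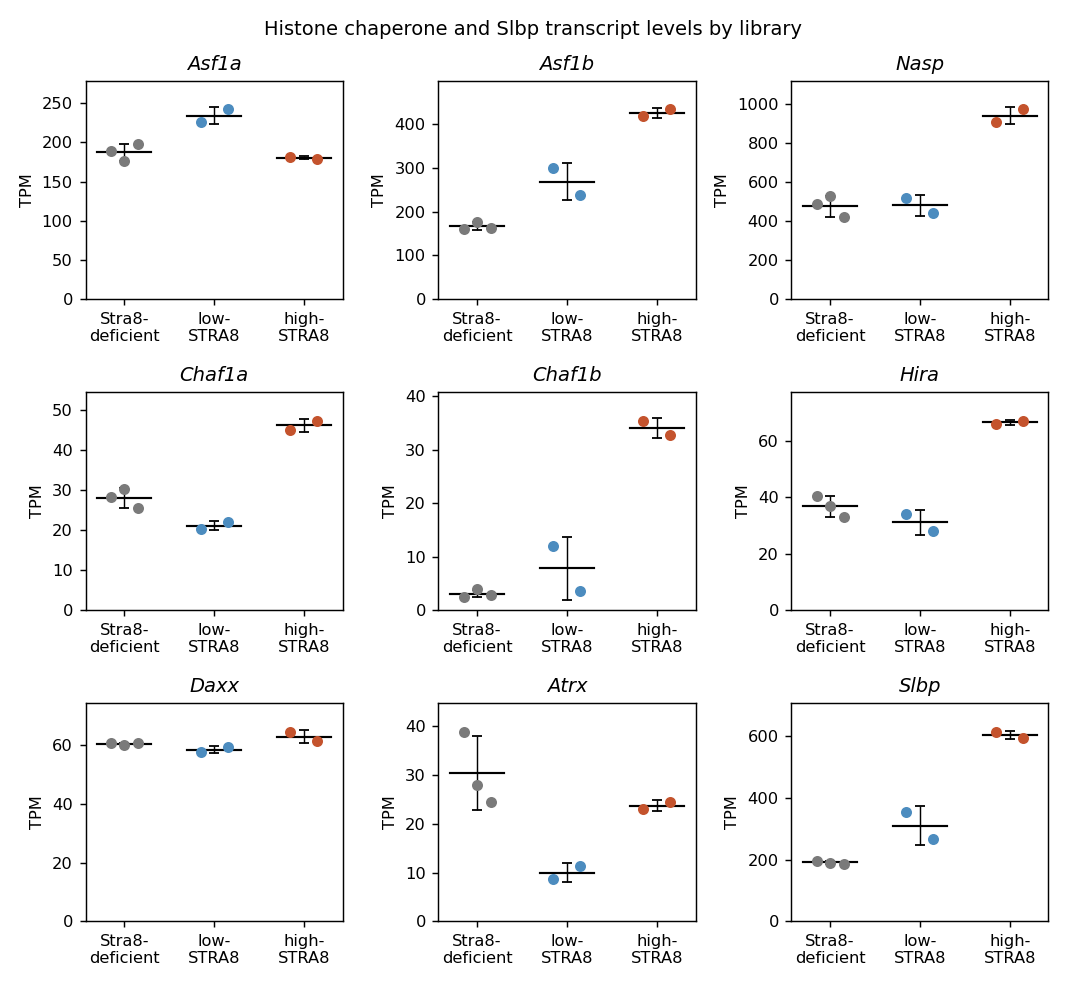
Transcript level (TPM, linear axis from 0) of each gene in every RNA-seq library, by group (3 Stra8-deficient, 2 low-STRA8, 2 high-STRA8); points are libraries, long bars are means and error bars are SD. Asf1b, Slbp and Chaf1b were lowest on average in Stra8-deficient and highest in high-STRA8 cells, Nasp, Chaf1a and Hira were highest in the 2 high-STRA8 libraries, and Daxx stayed between 57.6 and 64.6 TPM.

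**Figure D2:**
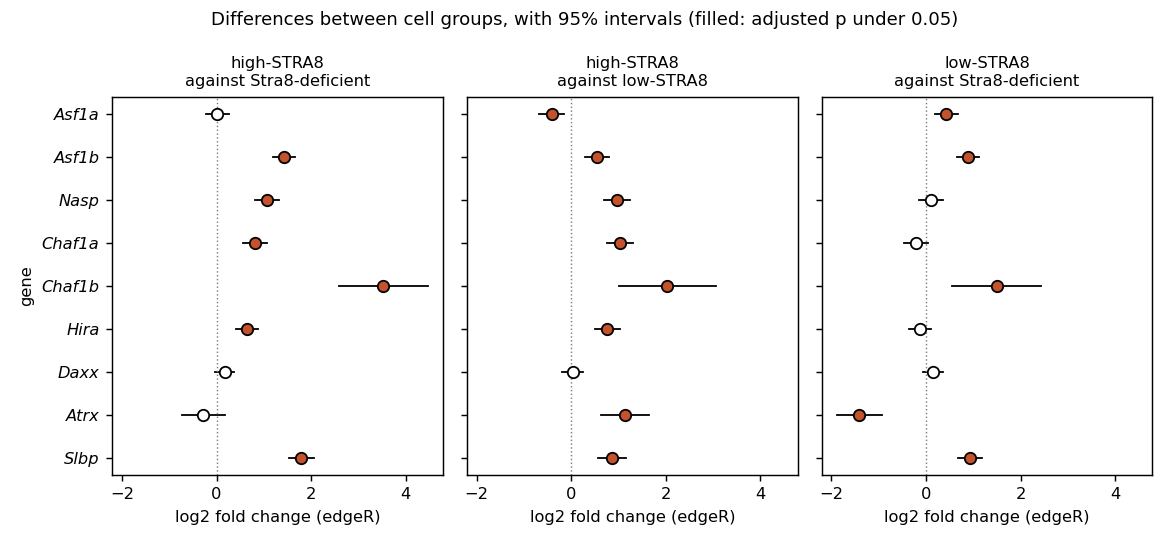
Log2 fold change of each gene with its 95% interval (edgeR) in the 3 comparisons; filled points have an adjusted p under 0.05. The high-STRA8 against Stra8-deficient panel holds 6 filled points, all to the right of 0, and Chaf1b has the widest interval in every panel.

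Asf1a and Asf1b encode the paralogs of ASF1, which binds an H3-H4 dimer and passes it to the deposition complexes. Asf1b stood at 161, 177 and 162 TPM in Stra8-deficient libraries, 299 and 238 TPM in low-STRA8 libraries and 417 and 433 TPM in high-STRA8 libraries. No group overlapped another, and low-STRA8 replicate 1 lay above replicate 2. The rise from Stra8-deficient to high-STRA8 cells was 2.68-fold (log2 1.42 ± 0.10 SE, adjusted p = 6.67e-05). Low-STRA8 cells lay 0.88 ± 0.10 above Stra8-deficient cells (adjusted p = 0.00186), and high-STRA8 cells 0.54 ± 0.11 above low-STRA8 cells (adjusted p = 0.00702). The second difference was 0.51, and no longer called, without high-STRA8 replicate 2.

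Asf1a did not share that pattern. Its level was 189, 176 and 197 TPM in Stra8-deficient, 226 and 242 TPM in low-STRA8 and 182 and 179 TPM in high-STRA8 libraries. The low-STRA8 libraries lay above the other groups, which overlapped each other. High-STRA8 and Stra8-deficient cells differed by 0.01 on the log2 scale (95% interval -0.23 to 0.26, adjusted p = 0.929). Low-STRA8 cells held 1.35-fold more than Stra8-deficient cells (log2 0.43 ± 0.11, adjusted p = 0.0215) and 1.34-fold more than high-STRA8 cells (adjusted p = 0.0226). Each of these calls was lost without low-STRA8 replicate 2 (adjusted p = 0.0873 and 0.0968), the first also without Stra8-deficient replicate 2 (0.0671) and in a fit of those groups alone (0.0511), and the second also without either high-STRA8 replicate (0.0578 and 0.226). Asf1a has short transcripts (725 to 2201 bases), and the fifth of genes with the shortest effective length had a median of 0.27 in the low-STRA8 against Stra8-deficient comparison and -0.34 in the high-STRA8 against low-STRA8 comparison. The part of length in the Asf1a differences was not tested. The paralogs changed places, with Asf1a above Asf1b on average in Stra8-deficient cells, where their ranges overlapped, and Asf1b above Asf1a on average in both other groups. The ranges also overlapped in low-STRA8 cells, where Asf1a was above Asf1b in replicate 2, and stood apart only in high-STRA8 cells.

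The Asf1b promoter held a FLAG summit in all 3 FLAG/FLAG libraries and in none of the wild-type libraries. The highest summit lay 124, 162 and 130 bp upstream of the start of Asf1b (mm10, chromosome 8, 83955507 to 83970197, plus strand), with MACS2 scores (-log10 p) of 45.3, 47.2 and 18.3. These scores stood at the 90.6, 94.9 and 66.8 percentiles of all promoter summits of the same library. The 100 bases around the replicate 2 summit, outside any annotated transcript, are shown because they held the highest score of this gene. The motif that the study used for STRA8, CNCCTCAG, did not occur there on either strand, and its nearest match lay 430 bp upstream of the start, in an intron of Gm10644 (match in capitals).
Asf1b summit window, chr8:83955295-83955394, plus strand: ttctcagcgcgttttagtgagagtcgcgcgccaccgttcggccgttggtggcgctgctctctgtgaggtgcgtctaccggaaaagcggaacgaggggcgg
Asf1b motif match, chr8:83955062-83955091, plus strand: aaaggtaggaaCCCCTCAGggtagtcccca

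The start of Gm10644, a divergent gene, lies 302 bp from that of Asf1b, so a summit between them cannot be assigned to either gene. Gm10644 was at 0.680 to 0.760 TPM in Stra8-deficient, 0.715 to 0.878 TPM in low-STRA8 and 3.47 and 3.48 TPM in high-STRA8 libraries with a rise over Stra8-deficient cells (log2 2.34 ± 0.26, adjusted p = 0.000372). Asf1a (chromosome 10, 53596757 to 53609225, plus strand) had summits in 1 of 3 FLAG/FLAG libraries, of which the higher scored 10.5, and so was not counted as bound. Its start lies 109 bp from that of Mcm9.

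NASP binds H3 and H4 and protects their soluble pool, and it was named as an autoantigen of sperm. Nasp had the highest level of the 9 genes in every group, at 486, 527 and 420 TPM in Stra8-deficient, 520 and 444 TPM in low-STRA8 and 911 and 973 TPM in high-STRA8 libraries. The high-STRA8 libraries stood clear of the others, and the low-STRA8 libraries fell within the range of the Stra8-deficient libraries. Its rise was 2.1-fold over Stra8-deficient cells (log2 1.07 ± 0.11, adjusted p = 0.000244) and 1.95-fold over low-STRA8 cells (log2 0.97 ± 0.12, adjusted p = 0.00118). The difference between low-STRA8 and Stra8-deficient cells was 0.11 (95% interval -0.15 to 0.36, adjusted p = 0.525).

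Of the annotated Nasp transcripts, Nasp-201, with 773 codons, made up 73.8% to 76.6% of the gene's TPM in Stra8-deficient, 59.2% to 62.8% in low-STRA8 and 74.3% to 76.1% in high-STRA8 libraries. Nasp-203, with 421 codons, took 2.38% to 7.15%, 16.3% to 17.0% and 2.16% to 4.58% in the same order of groups. In low-STRA8 cells the shorter Nasp-203 stood at 62.2 and 57.8 TPM, above its level in each of the 5 other libraries, and Nasp-201 at 226 and 214 TPM, below its level in each of them. These shares are kallisto's division of reads that the transcripts partly share, and with 2 and 3 libraries a group they are given without a test. Transcript levels, here and for Hira, are TPM over all transcripts. Gene levels are summed over protein-coding transcripts and rescaled, so transcript and gene levels are on different scales.

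FLAG summits lay at Nasp (chromosome 4, 116601052 to 116627941, minus strand) in 3 of 3 FLAG/FLAG libraries, with scores of 31.3, 27.4 and 11.8. They lay 198, 257 and 267 bp downstream of the start of Nasp-203, the nearest start, in an intron of Nasp. The start of Nasp-201, the transcript with the largest share of TPM, lies farther upstream, at position 116627941. The replicate 1 window is printed to show the site, together with the only match to CNCCTCAG within 1 kb of a Nasp start, 76 bp downstream of the start of Nasp-203 and in an untranslated exon.
Nasp summit window, chr4:116627230-116627329, plus strand: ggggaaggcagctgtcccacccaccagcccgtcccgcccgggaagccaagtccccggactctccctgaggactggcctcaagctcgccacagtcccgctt
Nasp motif match, chr4:116627387-116627416, minus strand: cactggcccacCACCTCAGgggaacgatgg

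Chaf1a and Chaf1b encode the large and middle subunits of chromatin assembly factor 1, and both rose without a FLAG summit at their promoters. Chaf1b was at 2.54, 3.92 and 2.94 TPM in Stra8-deficient, 12.0 and 3.65 TPM in low-STRA8 and 35.5 and 32.8 TPM in high-STRA8 libraries. The high-STRA8 libraries lay above all others, while low-STRA8 replicate 2 fell within the Stra8-deficient range and replicate 1 above it. Its log2 fold change of 3.53 ± 0.41 over Stra8-deficient cells (11.5-fold, 95% interval 2.58 to 4.47 on the log2 scale, adjusted p = 0.000475) ranked at place 32 of the 12526 genes tested. It rested on 64.0 to 108.0 estimated counts in Stra8-deficient and 798.0 to 904.0 in high-STRA8 libraries. Chaf1b was 4.08-fold higher than in low-STRA8 cells (log2 2.03 ± 0.45, adjusted p = 0.00900), a call that leaving out high-STRA8 replicate 1 or 2 brought to an adjusted p of 0.0527 or 0.0505. That log2 value was 3.06 without low-STRA8 replicate 1 and 1.44 without replicate 2, and called in both cases. The difference of low-STRA8 from Stra8-deficient cells (2.82-fold, log2 SE 0.41, adjusted p = 0.0317) depended on 1 library, since it was 0.47 on the log2 scale with an adjusted p of 0.24 without low-STRA8 replicate 1 and 2.09 without replicate 2. It was also not called without any 1 of the Stra8-deficient replicates (0.0739 to 0.108), nor by limma on log2(TPM + 1) (0.114). In all, the call was lost in 11 alternatives and kept in 5.

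Chaf1a was at 28.2, 30.3 and 25.4 TPM in Stra8-deficient, 20.3 and 21.9 TPM in low-STRA8 and 44.9 and 47.3 TPM in high-STRA8 libraries. No group overlapped another, and the low-STRA8 libraries were the lowest. The rise was 1.76-fold over Stra8-deficient cells (log2 0.82 ± 0.11, adjusted p = 0.000786) and 2.03-fold over low-STRA8 cells (log2 1.02 ± 0.12, adjusted p = 0.000984). Low-STRA8 and Stra8-deficient cells differed by -0.21 (95% interval -0.46 to 0.05, adjusted p = 0.208), a difference that limma on log2(TPM + 1) called (-0.39, adjusted p = 0.0349).

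The FLAG summit nearest to the start of Chaf1a (chromosome 17, 56040439 to 56070276, plus strand) lay 3717 to 3781 bp away in the 3 FLAG/FLAG libraries, at the start of Sh3gl1, with scores of 22.2, 12.0 and 6.61. Sh3gl1 was at 49.5 to 54.8 TPM in Stra8-deficient and 55.5 and 59.0 TPM in high-STRA8 libraries (log2 0.24 ± 0.10, adjusted p = 0.109). At Chaf1b (chromosome 16, 93883901 to 93906115, plus strand) the nearest summit was 51748 bp away. The 250 bases upstream of both RefSeq starts (GRCm38.p6, the same sequence as mm10) are shown because these genes rose with no summit. The Chaf1a stretch holds 1 match to CNCCTCAG, on its minus strand (capitals), and the Chaf1b stretch holds none. A match occurred in the same 250 bases of 7.39% of the 27025 genes with a RefSeq promoter, and it describes the letters and not a bound site.
Chaf1a upstream, chr17:56040166-56040415, plus strand: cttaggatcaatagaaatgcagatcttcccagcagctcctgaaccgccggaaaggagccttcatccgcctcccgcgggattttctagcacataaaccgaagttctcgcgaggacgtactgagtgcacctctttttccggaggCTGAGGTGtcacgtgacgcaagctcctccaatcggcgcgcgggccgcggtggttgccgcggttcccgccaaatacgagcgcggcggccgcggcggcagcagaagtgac
Chaf1b upstream, chr16:93883651-93883900, plus strand: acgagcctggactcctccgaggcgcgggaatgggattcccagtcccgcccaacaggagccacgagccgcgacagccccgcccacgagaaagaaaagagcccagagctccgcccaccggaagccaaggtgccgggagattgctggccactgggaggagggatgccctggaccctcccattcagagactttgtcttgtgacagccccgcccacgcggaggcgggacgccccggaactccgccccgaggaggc

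HIRA is the subunit that gives its name to the complex that deposits H3.3 independently of replication. Hira was at 40.5, 36.9 and 33.1 TPM in Stra8-deficient, 34.2 and 28.1 TPM in low-STRA8 and 66.0 and 67.2 TPM in high-STRA8 libraries. The high-STRA8 libraries stood apart, and the other groups overlapped. The count-based rise was 1.56-fold over Stra8-deficient cells (log2 0.64 ± 0.10, adjusted p = 0.00177) and 1.70-fold over low-STRA8 cells (log2 0.76 ± 0.11, adjusted p = 0.00201). With an offset for the effective length of the transcripts in each library, the former became 0.94 ± 0.10 (adjusted p = 0.000362) and the latter 0.99 ± 0.12 (adjusted p = 0.000897).

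The annotated Hira transcripts moved unequally. Hira-202, which has 453 codons and ends at position 18928011, was at 12.0, 12.4 and 9.88 TPM in Stra8-deficient, 12.2 and 9.51 TPM in low-STRA8 and 31.3 and 35.7 TPM in high-STRA8 libraries. The full-length Hira-201, with 1015 codons and an end at position 18970309, was at 18.4, 16.8 and 15.8 TPM, 12.9 and 12.0 TPM, and 17.2 and 16.5 TPM. In these estimates, high-STRA8 cells stood within the Stra8-deficient range for the full-length transcript and above it for the short one. The share of Hira-202 in the gene's TPM was 38.4% to 42.4%, 44.2% to 48.7% and 64.5% to 68.4%, with no overlap between groups. As for Nasp, these values are kallisto's division of reads that the transcripts partly share, and they are given without a test.

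**Figure D3:**
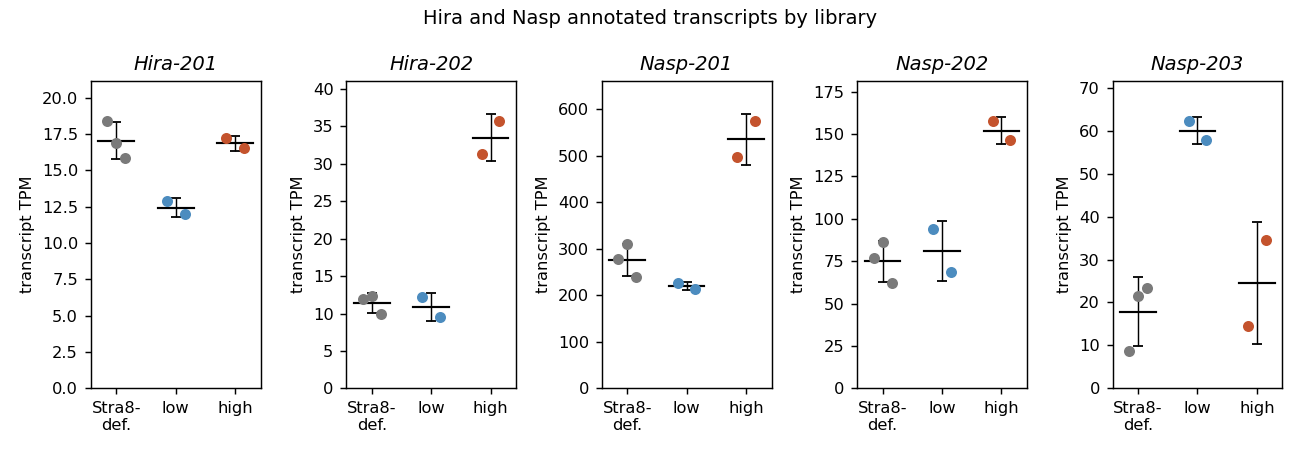
Level of each annotated Hira and Nasp transcript (TPM over all transcripts, linear axis from 0) in every library; points are libraries, long bars are means and error bars are SD, with 3, 2 and 2 libraries a group. Hira-202 rose in the high-STRA8 libraries where Hira-201 did not exceed 18.4 TPM, and Nasp-203 was highest in the 2 low-STRA8 libraries.

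Summits at Hira (chromosome 16, 18877037 to 18970309, plus strand) were present in 3 of 3 FLAG/FLAG libraries. The highest of each library lay 439, 462 and 488 bp upstream, with scores of 10.3, 13.5 and 13.6. These scores were near or below the middle of the promoter summits (percentiles 21, 49 and 48.8). FLAG/FLAG replicate 1 also held a lower-scoring summit 137 bp from a start of Hira. The highest summits lay in an untranslated exon of the divergent gene Mrpl40. The starts of Mrpl40 are 175 and 498 bp from that of Hira, so these summits cannot be assigned to either gene. Mrpl40, a mitochondrial ribosomal protein gene, was at 142 to 175 TPM in Stra8-deficient and 178 and 179 TPM in high-STRA8 libraries (log2 0.27 ± 0.14, adjusted p = 0.177). No match to CNCCTCAG lay within 1 kb of a Hira start. The 30 bases at the replicate 3 summit are given to mark its place.
Hira summit, chr16:18876534-18876563, plus strand: gccacccgctggcgggcagcttccgggagc

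DAXX binds H3.3 and works with the chromatin remodeler ATRX at repeats and telomeres. Daxx was the steadiest of the 9 genes, at 60.9, 60.2 and 60.7 TPM in Stra8-deficient, 57.6 and 59.4 TPM in low-STRA8 and 64.6 and 61.4 TPM in high-STRA8 libraries. Its ranges did not overlap between groups, but no difference passed the test. On counts, Daxx differed by 0.17 on the log2 scale between high-STRA8 and Stra8-deficient cells (95% interval -0.03 to 0.38, adjusted p = 0.163). It differed by 0.03 between high-STRA8 and low-STRA8 cells (-0.20 to 0.25, adjusted p = 0.859) and by 0.15 between low-STRA8 and Stra8-deficient cells (-0.06 to 0.35, adjusted p = 0.264). The last value is positive although the low-STRA8 libraries lay below the Stra8-deficient libraries in TPM, so its direction is uncertain. A FLAG summit was found at Daxx (chromosome 17, 33909445 to 33915590, plus strand) in FLAG/FLAG replicates 1 and 2, with scores of 20.5 and 9.32, and not in replicate 3. The replicate 2 summit, 31 bp downstream of the start of Daxx-202, had the only match to CNCCTCAG in the 100 bases around any of the 17 highest summits of the 9 genes.
Daxx motif match, chr17:33909583-33909612, minus strand: gacctggccccCACCTCAGaaacggtctct

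Atrx was at 38.9, 28.1 and 24.4 TPM in Stra8-deficient, 8.69 and 11.4 TPM in low-STRA8 and 23.0 and 24.5 TPM in high-STRA8 libraries. The low-STRA8 libraries lay below all others, and the Stra8-deficient and high-STRA8 ranges met at 24.4 to 24.5 TPM. Low-STRA8 cells held 2.66-fold less than Stra8-deficient cells (log2 -1.41 ± 0.21, adjusted p = 0.00368), and high-STRA8 cells 2.20-fold more than low-STRA8 cells (log2 1.14 ± 0.22, adjusted p = 0.00534). The latter call was lost, at an adjusted p of 0.05, without high-STRA8 replicate 2. High-STRA8 and Stra8-deficient cells differed by -0.28 (95% interval -0.73 to 0.18, adjusted p = 0.305). Atrx has the longest transcript of the 9 genes, 10275 bases, and the fifth of genes with the longest effective length had a median log2 difference of -0.38 in the low-STRA8 against Stra8-deficient comparison and 0.42 in the high-STRA8 against low-STRA8 comparison. The part of length in the Atrx difference was not tested. FLAG summits at Atrx (chromosome X, 105797615 to 105929403, minus strand) were weak, with scores of 7.15 and 8.04 in replicates 1 and 2, at the 2.6 and 7.5 percentiles of promoter summits, and none was found in replicate 3.

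Slbp, the histone mRNA binding protein gene, was at 197, 190 and 187 TPM in Stra8-deficient, 354 and 265 TPM in low-STRA8 and 614 and 595 TPM in high-STRA8 libraries. The groups did not overlap, and as with Asf1b low-STRA8 replicate 1 lay above replicate 2. Slbp rose 3.46-fold from Stra8-deficient to high-STRA8 cells (log2 1.79 ± 0.11, adjusted p = 5.81e-05). The difference was 0.93 ± 0.11 from Stra8-deficient to low-STRA8 cells (adjusted p = 0.00221) and 0.86 ± 0.13 from low-STRA8 to high-STRA8 cells (adjusted p = 0.00196). Slbp-201 and Slbp-203 together carried most of the gene's TPM in every library, and the share of Slbp-201 ran from 46.2% to 54.8%, 56.5% to 62.4% and 51.6% to 65.1% in the 3 groups. Its promoter (chromosome 5, 33634952 to 33652574, minus strand) held summits with scores of 51.1, 33.7 and 21.6 in the 3 FLAG/FLAG libraries, at 91, 72 and 48 bp downstream of the start of Slbp-201, in an untranslated exon. These stood at the 92.4, 88.8 and 74.9 percentiles. No match to CNCCTCAG lay within 1 kb of a Slbp start, and 30 bases at the replicate 1 summit are printed.
Slbp summit, chr5:33652468-33652497, plus strand: tccaacccaagccttgggattgcgggcagt

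By the study's rule, a summit within 1 kb of a start in at least 2 of 3 FLAG/FLAG libraries and in no wild-type library, 6 of the 9 genes were STRA8-bound, against 22.5% of 12521 expressed genes. Asf1b, Nasp, Hira and Slbp had a summit in each FLAG/FLAG library, and Daxx and Atrx rested on replicates 1 and 2. The Asf1b and Hira summits lie beside the starts of Gm10644 and Mrpl40, so these genes count as bound by distance only. No wild-type library had a summit at any of the 9 genes. Of the 6 genes that rose from Stra8-deficient to high-STRA8 cells, 4 were bound, beside 56.7% of the 2360 genes called higher and 16.65% of the 7880 genes not called. The other 2 that rose, Chaf1a and Chaf1b, were not bound, and of the 3 genes not called, Daxx and Atrx were. Leaving out FLAG/FLAG replicate 1 or 2, or requiring all 3 libraries, left 4 bound genes, without Daxx and Atrx, and a summit in any 1 library added Asf1a.

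**Figure D4:**
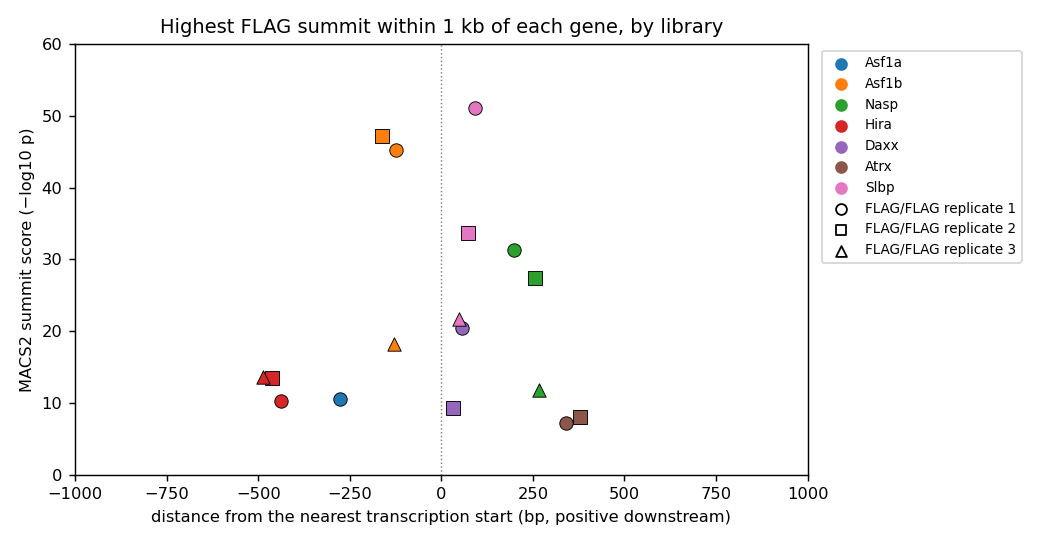
Score of the highest FLAG summit (MACS2 -log10 p) against its distance from the nearest start of the gene (bp), by gene (colour) and FLAG/FLAG library (marker); Chaf1a and Chaf1b had no summit within 1 kb. Asf1b and Slbp held the top scores in each library, within 162 bp of their starts, and the Atrx summits scored 7.15 and 8.04.

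Within 1 kb of a start, CNCCTCAG occurred at 2 places each at Asf1b and Daxx, at 1 place each at Asf1a, Chaf1a and Nasp, and at none at Chaf1b, Hira, Atrx and Slbp. No match lay within 1 kb of a start at 53.8% of expressed genes. In the 100 bases around promoter summits, a match was held by 10.53%, 14.1% and 15.6% of summits in the 3 FLAG/FLAG libraries.

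Turning to the proteins these genes work with, 12 partners of replication-coupled deposition were measured, of which 7 were called higher on counts in the high-STRA8 against Stra8-deficient comparison, Ipo4, an importin, fell, and 4 were not called, with a median of 0.46. Among the 7, Tonsl went the other way in TPM, at 93.2 to 97.9 TPM in high-STRA8 against 101 to 121 TPM in Stra8-deficient and 116 TPM in both low-STRA8 libraries, while its count-based log2 values were 0.50 ± 0.10 over Stra8-deficient cells (adjusted p = 0.00576) and 0.42 ± 0.11 over low-STRA8 cells (adjusted p = 0.0177), so its direction is uncertain. Genes outside the naming rule, such as Ipo4, are named from here on because a list had 5 or fewer called in that direction, and so after their values were seen. Rbbp4 and Rbbp7 encode WD40 proteins that bind H4, of which RBBP4 is the small subunit of chromatin assembly factor 1. Rbbp7 was at 317 to 325 TPM in Stra8-deficient and 394 and 401 TPM in high-STRA8 libraries (log2 0.43 ± 0.09, adjusted p = 0.00528, and 0.0796 without high-STRA8 replicate 2), and Rbbp4 differed by 0.23 ± 0.09 (adjusted p = 0.0693, and 0.0329 with DESeq2). Pcna, the sliding clamp that recruits chromatin assembly factor 1, rose from 215 to 229 TPM in Stra8-deficient libraries to 683 and 694 TPM in high-STRA8 libraries (log2 1.72 ± 0.14, adjusted p = 9.67e-05). Dnajc9, a histone-binding heat shock co-chaperone, rose from 107 to 124 TPM to 351 and 358 TPM (log2 1.69 ± 0.11, adjusted p = 5.81e-05), and Hat1, which acetylates new H4, from 337 to 369 TPM to 611 and 619 TPM (log2 0.88 ± 0.09, adjusted p = 0.000232). Cdan1, whose product binds ASF1 in the cytoplasm, rose from 10.1 to 12.3 TPM to 25.2 and 27.9 TPM (log2 1.36 ± 0.12, adjusted p = 0.00013). From Stra8-deficient to low-STRA8 cells 6 of the 12 rose and the kinase genes Tlk1 and Tlk2 fell, with a median of 0.36. From low-STRA8 to high-STRA8 cells Pcna, Hat1, Cdan1 and Dnajc9 rose, Tonsl was called higher on counts only, and Ipo4 fell, with a median of 0.29. The counts of this list and of the lists that follow stand beside the shares of all genes called higher and lower. These were 18.8% and 18.3% between high-STRA8 and Stra8-deficient cells. They were 21.4% and 18.3% from low-STRA8 to high-STRA8 cells, and 10.2% and 13.9% from Stra8-deficient to low-STRA8 cells.

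The partners of HIRA and of DAXX and ATRX did not move one way. Of 6 genes tested from the list of 7, Ubn1 and H3f3b rose and Cabin1 and H3f3a fell from Stra8-deficient to high-STRA8 cells, with a median of -0.16. Sp100 was under the limit of 1 TPM in every library. Ubn1 and Ubn2 encode paralogous subunits of the HIRA complex. Ubn1 was at 61.3 to 73.8 TPM in Stra8-deficient, 46.5 and 49.4 TPM in low-STRA8 and 81.9 and 84.6 TPM in high-STRA8 libraries, with a log2 difference of 0.36 ± 0.09 between high-STRA8 and Stra8-deficient cells (adjusted p = 0.0187) that was not called without high-STRA8 replicate 1 or 2 (0.0907 and 0.187) or by limma on log2(TPM + 1) (0.0842). Ubn2 was at 14.4 to 18.6 TPM, 5.85 and 6.48 TPM, and 13.97 and 16.7 TPM, and differed by 0.05 ± 0.20 (adjusted p = 0.866), or by 0.31 (adjusted p = 0.0499) without Stra8-deficient replicate 1. Cabin1, another subunit, was lower in high-STRA8 cells (42.3 TPM in both libraries against 55.7 to 68.4 TPM, log2 -0.49 ± 0.13, adjusted p = 0.017, and 0.0538, 0.108 and 0.124 without Stra8-deficient replicate 2 and high-STRA8 replicates 1 and 2).

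H3f3a and H3f3b encode the same H3.3 protein and went in opposite directions. H3f3b rose from 953 to 1183 TPM in Stra8-deficient libraries to 2180 and 1949 TPM in high-STRA8 libraries (log2 1.02 ± 0.13, adjusted p = 0.000729). H3f3a fell from 1300 to 1605 TPM to 1042 and 1082 TPM (log2 -0.45 ± 0.11, adjusted p = 0.0123, and 0.0771 and 0.133 without high-STRA8 replicates 1 and 2). Both genes have processed copies in the genome, so reads may be split between them. From Stra8-deficient to low-STRA8 cells H3f3b rose and Ubn1, Ubn2 and Cabin1 fell (median -0.35). Ubn1, Ubn2 and H3f3b rose and H3f3a fell from low-STRA8 to high-STRA8 cells (median 0.43). The 2505 genes with the longest effective length had median log2 differences of -0.38 and 0.42 in these comparisons, in the same order. The part of length in the differences of low-STRA8 cells from the other groups was not tested for any of the partner lists.

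Of 22 other histone chaperones, 7 rose from Stra8-deficient to high-STRA8 cells, Anp32a, Vps72 and Aplf fell, and 12 were not called, with a median of 0.13. The shares over all genes tested were 18.8% higher and 18.3% lower. Ncl and Npm1 encode nucleolar chaperones. Ncl rose from 356 to 401 TPM to 573 and 556 TPM (log2 0.65 ± 0.09, adjusted p = 0.00105) and Npm1 from 1555 to 1734 TPM to 2184 and 2163 TPM (log2 0.55 ± 0.09, adjusted p = 0.00241). Oip5, which acts in loading of the centromeric H3 variant, rose from 83.7 to 111 TPM to 136 and 160 TPM (log2 0.67 ± 0.12, adjusted p = 0.00389, and 0.0613 without high-STRA8 replicate 2). Anp32a, of the acidic nuclear phosphoprotein family, fell from 305 to 363 TPM to 153 and 143 TPM (log2 -1.08 ± 0.17, adjusted p = 0.00161). From low-STRA8 to high-STRA8 cells Anp32a, Npm3 and Vps72 fell, and the genes that rose included Supt16, Set, Npm1 and Ncl (median 0.23). From Stra8-deficient to low-STRA8 cells Anp32e and Mis18a rose, and the genes that fell included Supt16 and Supt6 (median -0.06).

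Genes of histone mRNA synthesis, processing and turnover, the setting in which SLBP acts, rose for 7 of 18 from Stra8-deficient to high-STRA8 cells and fell for Lsm10, Srrt and Ncbp2, with a median of 0.16. Among all genes tested, 18.8% were called higher and 18.3% lower. Npat and Casp8ap2 encode components of the histone locus body, where replication-dependent histone genes are transcribed. Npat rose from 44.5 to 61.8 TPM in Stra8-deficient libraries to 153 and 157 TPM in high-STRA8 libraries (log2 1.63 ± 0.12, adjusted p = 7.63e-05). Casp8ap2 rose from 36.3 to 54.0 TPM to 128 and 132 TPM (log2 1.62 ± 0.14, adjusted p = 0.00012). Cstf2, a cleavage factor, rose from 105 to 120 TPM to 184 and 191 TPM (log2 0.865 ± 0.09, adjusted p = 0.000331). Lsm10, a subunit of the U7 small nuclear ribonucleoprotein that cuts histone mRNA, fell from 26.2 to 29.5 TPM to 10.1 and 10.4 TPM (log2 -1.43 ± 0.22, adjusted p = 0.00171). From low-STRA8 to high-STRA8 cells 7 rose and Lsm10, Ncbp2, Eri1 and Lsm1 fell (median 0.13), and from Stra8-deficient to low-STRA8 cells Npat, Cstf2 and Eri1 rose and Upf1 and Zcchc6 fell (median 0.19).

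Of 67 replication-dependent histone genes, the mRNAs that SLBP binds, 41 were tested, with medians of 0.57, 0.44 and 0.56 in the high-STRA8 against Stra8-deficient, high-STRA8 against low-STRA8 and low-STRA8 against Stra8-deficient comparisons. Those that passed the test were 6 higher and 1 lower, 2 higher and 2 lower, and 2 higher and 0 lower, in the same order. Over all genes tested, the shares called higher and lower were 18.8% and 18.3%, 21.4% and 18.3%, and 10.2% and 13.9%. The closely related sequences of the histone genes may split reads. Most of these mRNAs lack the poly(A) tail on which the libraries were selected.

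Ordered by TPM, Nasp was first in each group and Slbp second. In Stra8-deficient cells the ranges of Slbp, Asf1a and Asf1b overlapped in sequence, as did those of Hira, Atrx and Chaf1a, while Daxx stood between the 2 sets and Chaf1b was lowest. In low-STRA8 cells Slbp overlapped Asf1b and Asf1b overlapped Asf1a, and Chaf1b overlapped Atrx at the bottom of the order. In high-STRA8 cells no gene overlapped its neighbour in the order Nasp, Slbp, Asf1b, Asf1a, Hira, Daxx, Chaf1a, Chaf1b and Atrx. Atrx thus moved to the last place, below Chaf1b.

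The gene whose log2(TPM + 1) most resembled that of each member over the 7 libraries was sought among 9644 genes averaging 5 TPM or more. It was Gins3 for Asf1b (Pearson r 0.9987), Iws1 for Chaf1a (0.9986), Ppp1r18 for Chaf1b (0.9998), Evi5l for Nasp (0.9974), Zyg11a for Hira (0.9987), Iqcb1 for Slbp (0.9988), Med13l for Atrx (0.9956), 2010107E04Rik for Asf1a (0.9847) and Zfp90 for Daxx (0.95). Among the 9 genes themselves, Asf1b and Slbp were most alike (r = 0.99), Nasp and Hira resembled each other most (0.96), and the highest value of Asf1a with another member was -0.07, with Asf1b. The 7 points share 3 groups, and each best match was picked as the highest value of its search. These values are thus a description and were not tested.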

How the data were processed

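RNA was measured by poly(A)-selected RNA-seq in 7 libraries of sorted preleptotene cells and STRA8 binding by FLAG ChIP-seq in 3 FLAG/FLAG and 3 wild-type testes, grouped by the submitters' labels. The authors quantified transcripts with kallisto 0.43.0 and deposited estimated counts, effective lengths and TPM per transcript, and TPM summed over protein-coding transcripts per gene and rescaled. They also deposited a normalized signal per gene, the estimated count scaled by DESeq2 1.18.1, used here only as an alternative. For ChIP-seq, the authors aligned reads to mm10 with Bowtie 1.2.0 and called peaks on each library against its input with MACS2 2.1.1.20160309, and the deposited summit score is the −log10 p of the peak. The input libraries served in peak calling and were not analysed here.

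Transcripts (75554 of 75737) were matched to GENCODE M21 on mm10 and summed by gene, which joined 12527 of 12545 genes that exceeded 1 TPM somewhere. After rounding, the counts went into edgeR 4.0.16 under R 4.3.3 (TMM scaling, quasi-likelihood test with robust dispersions), in 1 fit of the 7 libraries with 4 residual degrees of freedom, and adjusted by Benjamini and Hochberg over 12526 genes at a threshold of 0.05. The code was tested on simulated data. DESeq2 1.42.0 and limma 3.58.1 (log2(TPM + 1), log2(TPM + 0.1) and log2(normalized counts + 1)) were alternatives. Fold changes are edgeR log2 values with SE and 95% intervals, and levels are TPM. The study describes the libraries as biological replicates. Genes with a summit within 1 kb of the start of a protein-coding transcript in at least 2 of 3 FLAG/FLAG and 0 wild-type libraries were called STRA8-bound, and CNCCTCAG was searched on both strands with pysam 0.24.0. Sequences are from the RefSeq assembly GRCm38.p6, and all 9 genes matched its promoter table. The ChIP files give no read depth, so scores are compared within a library by percentile.

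The 9 genes and the other lists were chosen with earlier results of these data known. Named besides the 9 genes are Ubn1, Ubn2, Cabin1, Rbbp4, Rbbp7, H3f3a and H3f3b, the 4 lowest adjusted p-values between high-STRA8 and Stra8-deficient cells in each of the other partner lists, Stra8 and the gene most like each member. Gm10644, Mcm9, Mrpl40 and Sh3gl1 were named after their values were seen, because a summit or start lies beside theirs. Marker lists gave, besides those in the report, 3 or 4 of 7 undifferentiated spermatogonia, 1 of 7 pachytene and later, 1 to 4 of 6 Leydig and 1 or 2 of 5 peritubular and endothelial markers over 1 TPM in a group. The values of 1 gene of the other histone chaperones are not reported here.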

Additional observations from a re-analysis of the deposited data

How the results depend on the processing

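With 2 or 3 libraries a group, small differences were hard to call, and calls over all genes between high-STRA8 and Stra8-deficient cells went from 4646 to 2426 and 1983 without high-STRA8 replicate 1 and 2. Of 423 recomputed values of the 9 genes, 389 kept direction and side of the threshold, and the 6 calls between high-STRA8 and Stra8-deficient cells held in every alternative. Leaving out 1 library gave 4 to 8 members called between high-STRA8 and low-STRA8 cells and 3 to 4 between low-STRA8 and Stra8-deficient cells, and 18 to 31, 13 to 28 and 12 to 21 partner genes called in the high-STRA8 against Stra8-deficient, high-STRA8 against low-STRA8 and low-STRA8 against Stra8-deficient comparisons (32, 29 and 22 with all libraries). A fit of the 2 groups alone gave 3 members and 13 partner genes between low-STRA8 and Stra8-deficient cells. No value that changed sign was called. For Asf1a the values between high-STRA8 and Stra8-deficient cells were -0.023 with a minimum of 5 TPM, -0.054 and -0.0543 by limma on log2(TPM + 1) and log2(TPM + 0.1), and -0.0843 to 0.1089 without 1 library. For Daxx they were -0.0031 with the length offset, -0.0282 by limma on normalized counts, -0.0039 in a fit of the 2 groups alone and -0.0367 to 0.0917 without 1 library between high-STRA8 and low-STRA8 cells, and -0.0502 and -0.0509 by limma on TPM between low-STRA8 and Stra8-deficient cells. For Ubn2 they were -0.0557 and -0.0587 by limma on TPM between high-STRA8 and Stra8-deficient cells, and leaving out 1 library gave -0.0727 to 0.314, the upper end being positive and called (adjusted p = 0.0499, without Stra8-deficient replicate 1). TPM shifted the median of all genes by -0.08, 0.11 and -0.15 in the 3 comparisons in the order above, and its calls divided into 2049 higher and 3002 lower, 3131 and 1791, and 498 and 2707, against 2360 and 2286, 2677 and 2288, and 1272 and 1741 from counts. Replicate numbers did not pair the samples (r = -0.1445 to -0.0195 for same-numbered libraries). With the replicate number as a block, calls over all genes were 3390, 4488 and 2578 against 4646, 4965 and 3013, Chaf1b was not called between low-STRA8 and Stra8-deficient cells (adjusted p = 0.17), with no other member call changed, Ubn1 was not called between high-STRA8 and Stra8-deficient cells (0.065), and Ubn2 was at -0.0559. With the crossed pairing, chosen after seeing the data, they were 3934, 5030 and 3256, with Ubn2 at -0.0443.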
